A study of Homo sapiens with 4 samples.

Results

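The globins and glycophorins described here are 9 genes of the hemoglobin and red cell surface programs: the alpha-like globin genes HBZ, HBA1 and HBA2, the beta-like globin genes HBE1, HBG1, HBG2 and HBB, and the glycophorin genes GYPB and GYPC. They were chosen by gene symbol, with their levels in these same libraries already in view, so every value below is a description and none was tested. They are 9 of the 17894 genes with a value. With a mean of at least 1 FPKM over the libraries as the filter, 6 of the 9 members (HBZ, HBA2, HBE1, HBG2, GYPB and GYPC) were among the 12697 genes compared. FPKM is the number of sequenced fragments of a gene scaled for transcript length and for library depth, so levels of different genes can be set side by side.

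Hemoglobin is a tetramer of alpha-like and beta-like globin chains, each holding a heme group. The alpha-like genes lie in a cluster on chromosome 16 and the beta-like genes in a cluster on chromosome 11, and each cluster is read in a developmental sequence. Zeta-globin (HBZ) and epsilon-globin (HBE1) are the embryonic chains of the primitive red cells made in the yolk sac, gamma-globin (HBG1 and HBG2) is the fetal beta-like chain, beta-globin (HBB) the adult one, and alpha-globin (HBA1 and HBA2) pairs with the fetal and adult chains. Glycophorins are heavily sialylated proteins of the red cell surface. Glycophorin B and glycophorin E are close relatives encoded near each other on chromosome 4, whereas glycophorin C, encoded on chromosome 2, is an unrelated protein that anchors the membrane skeleton through protein 4.1 and is made in many cell types besides red cells.

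The study asked how R-spondin2, a secreted enhancer of WNT signaling, acts on blood formation from human pluripotent cells. H1, a human embryonic stem cell line, was differentiated on mAGM-S3, a mouse stromal cell line, and human cells were sorted at day 2 with an antibody to TRA-1-85, an antigen that mouse cells lack. Total RNA was sequenced from 4 libraries, namely 1 of wild-type cells without added R-spondin2 (control), 1 of wild-type cells that had received 20 ng/mL of R-spondin2 over 1 day, and 2 of cells labelled LGR4-/-, after a gene that encodes a receptor for R-spondins, whose descriptions name no added R-spondin2. The labels number the LGR4-/- samples 1 and 2 without saying how they were derived, whether they are separate lines or how the gene was disrupted, and all 3 groups shared the stroma, the medium and the sort.

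Control and R-spondin2 had 1 library each, so neither has a replicate error, and the distance between LGR4-/- 1 and LGR4-/- 2 is the only spread available. The number of reads was estimated from the lowest FPKM, at between 8680000 and 8900000 reads per library. LGR4 itself read 21.77 FPKM in the control, 24.26 with R-spondin2, 7.40 in LGR4-/- 1 and 13.95 in LGR4-/- 2. It was lower in both samples labelled LGR4-/- but not absent, and the reason was not tested. The day-2 cells carried pluripotency and mesoderm markers, each of them with a mean of at least 1 FPKM, whereas 7 of 11 blood cell markers had a mean below 1 FPKM and CD34, a surface marker of blood progenitors, was at most 0.22 FPKM. Among 30 genes that every cell uses, 0 were listed at 0 in any library.

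HBZ, HBE1, HBG2 and HBA2 were detected at low levels in every library and in one fixed order. HBG2 ranged from 9.48 to 14.46 FPKM over the 4 libraries, HBE1 from 6.76 to 8.85, HBA2 from 4.31 to 6.35 and HBZ from 3.18 to 5.24. The range of HBG2 lay above that of HBE1 and the range of HBE1 above that of HBA2, while the ranges of HBA2 and HBZ overlapped. HBB and HBA1 were listed at 0 in all 4 libraries, and HBG1 in both LGR4-/- libraries.

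**Figure D1:**
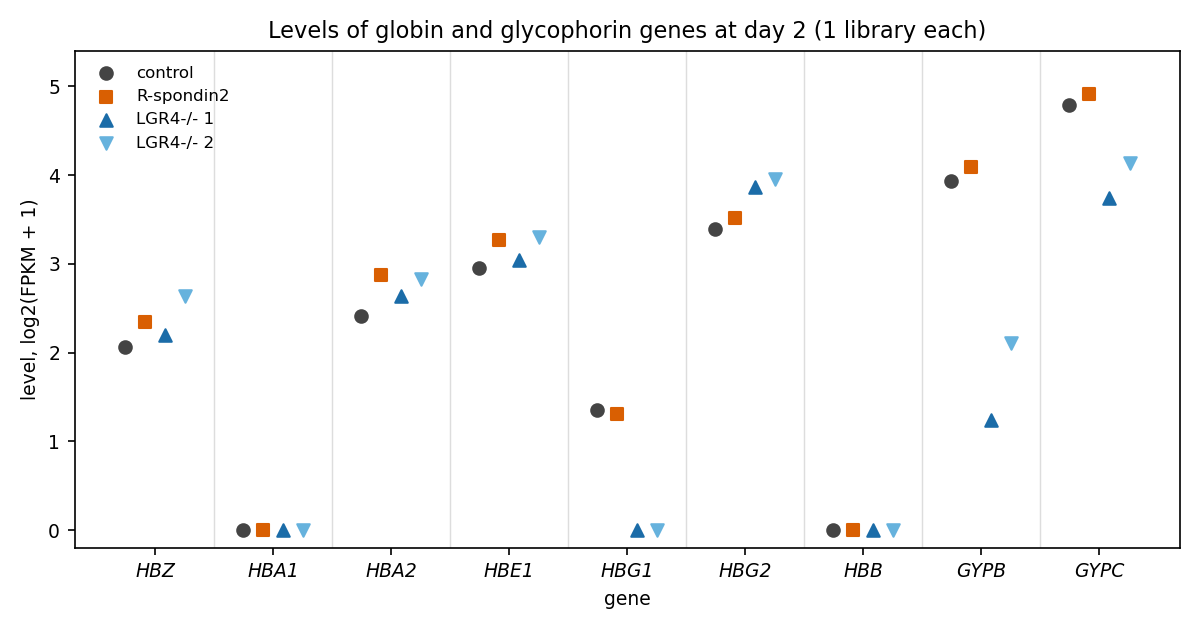
Level of each of the 9 genes, as log2(FPKM + 1) on the vertical axis, with 1 symbol per library (control, R-spondin2, LGR4-/- 1 and LGR4-/- 2). HBA1 and HBB sit at 0 throughout, HBG1 is at 0 in both LGR4-/- libraries, the other globins differ little between libraries, and GYPB and GYPC are lower in both LGR4-/- libraries.

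Among the alpha-like genes, HBZ read 3.18 FPKM in the control, 4.08 with R-spondin2, 3.57 in LGR4-/- 1 and 5.24 in LGR4-/- 2. The control was the lowest and LGR4-/- 2 the highest, and the LGR4-/- libraries lay on either side of the R-spondin2 library. On the log2(FPKM + 1) scale, which understates the change of low genes, HBZ was 0.28 higher than the control with R-spondin2, 0.13 higher in LGR4-/- 1 and 0.58 higher in LGR4-/- 2. At the estimated depth these levels stand for 21, 27, 24 and 35 reads in that order. The 95% counting interval of the log2 ratio of reads to the control included 0 in each comparison, from -0.48 to 1.29 with R-spondin2, from -0.71 to 1.11 in LGR4-/- 1 and from -0.06 to 1.61 in LGR4-/- 2. These intervals cover counting error only.

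HBA2, the alpha-globin gene that received all the signal of its pair, read 4.31 FPKM in the control, 6.35 with R-spondin2, 5.24 in LGR4-/- 1 and 6.08 in LGR4-/- 2. R-spondin2 was the highest library here, 0.47 above the control on the log2(FPKM + 1) scale, against 0.23 in LGR4-/- 1 and 0.42 in LGR4-/- 2. That R-spondin2 difference ranked 152 from the top among 12697 genes, but it rests on 32 against 22 reads, and its counting interval ran from -0.25 to 1.43. The coding sequences of HBA1 and HBA2 in the reference annotation are identical over all 429 bases, so no stretch of 50 coding bases can tell them apart. The parts of the transcripts outside the coding sequence were not compared. Whether the 0 listed for HBA1 in every library comes from the split of reads was not tested, and the HBA2 value is best read as the pair.

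The embryonic beta-like gene HBE1 read 6.76 FPKM in the control, 8.67 with R-spondin2, 7.22 in LGR4-/- 1 and 8.85 in LGR4-/- 2. Its libraries fell into 2 close pairs that did not follow genotype, with the control beside LGR4-/- 1 and R-spondin2 beside LGR4-/- 2. The differences from the control were 0.32, 0.08 and 0.34 on the log2(FPKM + 1) scale, and each counting interval included 0. HBE1 is distinct enough to be counted on its own, since 99.7% of its 50-base coding windows occur in no other globin gene of the 2 clusters.

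The fetal gene HBG2 was the most abundant globin, at 9.48 FPKM in the control, 10.47 with R-spondin2, 13.57 in LGR4-/- 1 and 14.46 in LGR4-/- 2. Both LGR4-/- libraries lay above both wild-type libraries. HBG2 was 0.13 higher than the control with R-spondin2 and 0.52 ± 0.06 (SD, n = 2) higher in the LGR4-/- libraries on the log2(FPKM + 1) scale. In LGR4-/- 2 the counting interval of its read ratio, from 0.08 to 1.14, did not include 0, whereas in LGR4-/- 1 it did, from -0.02 to 1.05.

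Its neighbor HBG1 went the other way, reading 1.56 FPKM in the control and 1.48 with R-spondin2 and being listed at 0 in LGR4-/- 1 and LGR4-/- 2. Its difference from the control, which held about 11 reads, was -1.36 on the log2(FPKM + 1) scale in each LGR4-/- library. The upper limits of its counting intervals were -1.33 in LGR4-/- 1 and -1.31 in LGR4-/- 2. The coding sequences of HBG1 and HBG2 differ at 2 of 444 bases, and 21.5% of their 50-base coding windows are found in only 1 of them. On coding sequence alone, the split of reads between them is uncertain, and the rest of the transcripts was not compared. Summed over the pair, gamma-globin read 11.04 FPKM in the control, 11.95 with R-spondin2, 13.57 in LGR4-/- 1 and 14.46 in LGR4-/- 2. The order of the libraries was that of HBG2, but the differences from the control shrank to 0.28 in LGR4-/- 1 and 0.36 in LGR4-/- 2, with counting intervals of the read ratio from -0.27 to 0.74 and from -0.17 to 0.83. For the same comparison the mean LGR4-/- difference went from 0.52 for HBG2 alone to 0.32 for the sum.

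The balance between globin classes differed by a few percentage points between libraries. The alpha-like members made up 29.6% of the summed globin FPKM in the control, 33.6% with R-spondin2, 29.8% in LGR4-/- 1 and 32.7% in LGR4-/- 2. Embryonic HBE1 gave 38.0% of the beta-like sum in the control, 42.0% with R-spondin2, 34.7% in LGR4-/- 1 and 38.0% in LGR4-/- 2, and gamma-globin gave the rest. Embryonic HBZ likewise gave 42.5%, 39.1%, 40.5% and 46.3% of the alpha-like sum in that order. The fetal gamma-globin share of the beta-like sum thus exceeded the embryonic share in all 4 libraries, and HBB gave none of it. These shares rest on few reads per library, 21 to 35 for HBZ, 22 to 32 for HBA2 and 37 to 48 for HBE1. No counting interval was computed for the shares, so nothing is read from their differences between libraries. All globin members together summed to 25.29 FPKM in the control, 31.05 with R-spondin2, 29.60 in LGR4-/- 1 and 34.63 in LGR4-/- 2, with the control again the lowest.

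None of the 4 globins above the filter differed 2-fold from the control in any library, whereas HBG1, under the filter, was past 2-fold lower in both LGR4-/- libraries. With R-spondin2 the count was 0 of 6 members, against 0.221% of all genes compared that differed 2-fold in either direction. Raised 2-fold in both LGR4-/- libraries were 0 of 6 members, against 0.236% of all genes. Read without a threshold, HBZ, HBA2, HBE1 and HBG2 were higher than the control in each of the other 3 libraries, as were 17.9% of all genes. Since these comparisons share the one control library and the members were chosen on these values, nothing is read from that count. The median difference of these 4 globins was 0.30 with R-spondin2, 0.18 in LGR4-/- 1 and 0.49 in LGR4-/- 2, beside -0.01, 0.02 and 0.02 over all genes compared. The same 4 genes differed by a median of 0.22 between the LGR4-/- libraries, beside -0.003 over all genes compared. LGR4-/- 2 was the higher for each of the 4, and nothing is read from that count.

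**Figure D2:**
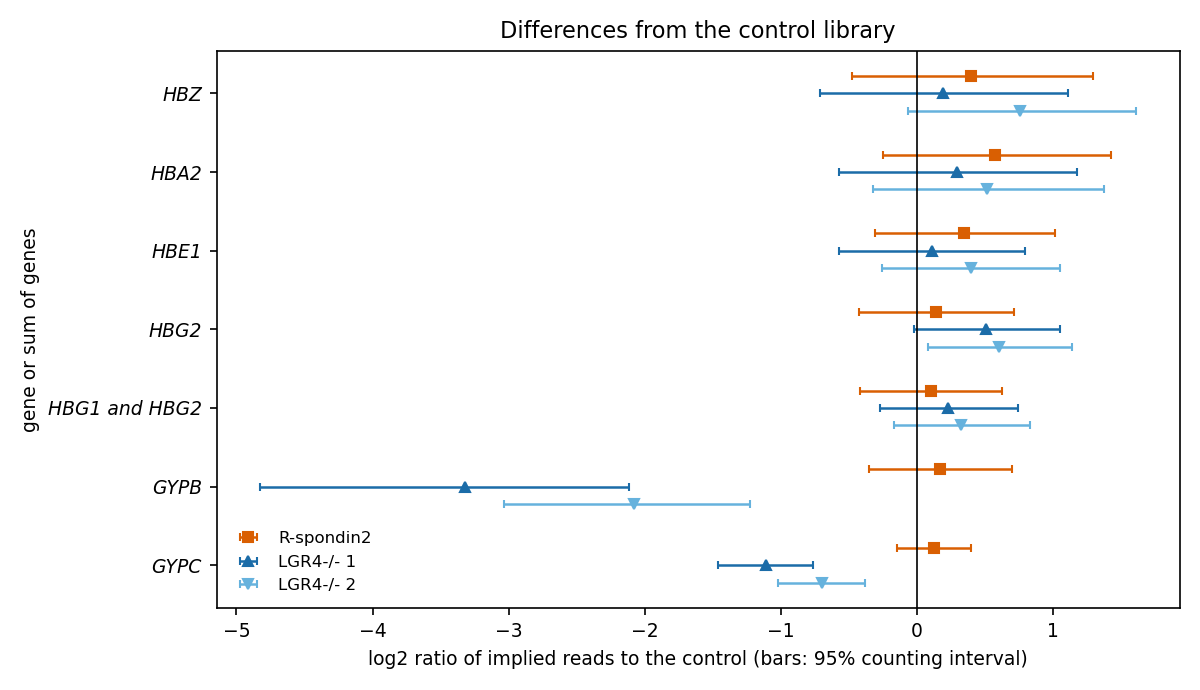
Log2 ratio of implied reads to the control on the horizontal axis for each gene, or sum of near-identical genes, in the R-spondin2, LGR4-/- 1 and LGR4-/- 2 libraries, with bars for the 95% counting interval. The plotted globin intervals, which leave out HBG1 on its own, reach across 0 except that of HBG2 in LGR4-/- 2, whereas GYPB and GYPC lie wholly below 0 in both LGR4-/- libraries.

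In the LGR4-/- libraries, both glycophorins were lower than in the control. Of the 9 members and GYPE, the relative nearest to GYPB, only GYPB, GYPC and GYPE were matched by symbol to promoter windows. GYPB and GYPE share this sequence and GYPC does not, and all 3 genes were lower in both LGR4-/- libraries. The part of the sequence in these differences was not tested. Each window runs 5′ to 3′ along the gene, from 250 bases before to 50 bases after an annotated RefSeq start. The windows are from build GRCh38.p14, whereas the submitters' processing notes name hg19. Capitals mark the words AGATAA or AGATAG or else TGATAA or TGATAG on either strand, the core recognized by GATA factors, which drive erythroid genes.
GYPB, chr4:144019296-144019595, minus strand: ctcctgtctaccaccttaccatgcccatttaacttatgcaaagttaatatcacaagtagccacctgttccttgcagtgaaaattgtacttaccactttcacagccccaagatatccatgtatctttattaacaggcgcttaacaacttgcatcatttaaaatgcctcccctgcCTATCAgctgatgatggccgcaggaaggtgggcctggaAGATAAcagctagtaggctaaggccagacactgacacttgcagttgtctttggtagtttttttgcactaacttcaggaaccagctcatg
GYPE, chr4:143905510-143905809, minus strand: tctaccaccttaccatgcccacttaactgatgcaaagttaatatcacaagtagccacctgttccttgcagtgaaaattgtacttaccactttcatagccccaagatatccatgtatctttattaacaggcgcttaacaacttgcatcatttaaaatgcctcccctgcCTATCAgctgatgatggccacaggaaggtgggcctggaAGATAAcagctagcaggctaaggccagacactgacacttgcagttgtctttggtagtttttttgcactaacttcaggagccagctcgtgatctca
GYPC, chr2:126655908-126656207, plus strand: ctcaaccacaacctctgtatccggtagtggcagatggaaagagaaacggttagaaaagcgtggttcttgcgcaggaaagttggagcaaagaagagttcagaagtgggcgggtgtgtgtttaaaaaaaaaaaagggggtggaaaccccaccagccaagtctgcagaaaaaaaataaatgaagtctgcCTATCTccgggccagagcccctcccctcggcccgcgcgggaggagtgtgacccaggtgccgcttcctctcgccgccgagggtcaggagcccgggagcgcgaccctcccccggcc

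Aligned without gaps, the GYPB and GYPE windows shared 287 of 294 bases (97.6%), including both GATA words, which began 77 and 39 bases before the start of GYPB and 83 and 45 bases before that of GYPE. The GYPC window held 1 such word, 64 bases before its start. A GATA word was found in 25% of 34796 promoter windows of the same length, so its presence is a description and marks no binding. CACCC, a core bound by KLF factors, was searched on both strands too and occurred at 2 places in the GYPC window and at 0 in these windows of GYPB and GYPE, against 59.8% of all windows with at least 1. The other RefSeq start of GYPB, upstream of the one shown, has 1 CACCC in its window and the same 2 GATA words. CCAAT and TATAAA were at 0 in all 3 windows and occurred in 34.6% and 11.6% of all windows. None of these words overlapped another.

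GYPB, whose product carries the S and s blood group antigens, read 14.25 FPKM in the control, 16.06 with R-spondin2, 1.36 in LGR4-/- 1 and 3.30 in LGR4-/- 2. Both LGR4-/- libraries lay far below both wild-type libraries. GYPB was 0.16 higher than the control with R-spondin2, and its difference from the control was -2.69 in LGR4-/- 1 and -1.83 in LGR4-/- 2 on the log2(FPKM + 1) scale, a mean of -2.26 ± 0.61 (SD, n = 2). That mean was the lowest but for 2 of the 12697 genes compared. In reads, the control gave about 60, R-spondin2 66, LGR4-/- 1 6 and LGR4-/- 2 14, with counting intervals of the log2 read ratio from -4.82 to -2.12 in LGR4-/- 1 and from -3.03 to -1.22 in LGR4-/- 2.

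GYPC, the most abundant member, read 26.74 FPKM in the control, 29.14 with R-spondin2, 12.40 in LGR4-/- 1 and 16.54 in LGR4-/- 2. The direction in each library was that of GYPB with smaller differences. GYPC was 0.12 higher than the control with R-spondin2, and its difference on the same scale was -1.05 in LGR4-/- 1 and -0.66 in LGR4-/- 2, a mean of -0.86 ± 0.27 (SD, n = 2). Its counting intervals of the log2 read ratio ran from -1.46 to -0.76 in LGR4-/- 1 and from -1.02 to -0.38 in LGR4-/- 2. With R-spondin2 the intervals of both genes included 0, from -0.35 to 0.70 for GYPB and from -0.15 to 0.40 for GYPC.

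Counted at 2-fold, GYPB and GYPC (2 of 6 members) were lowered in LGR4-/- 1, as were 2.26% of all genes. In LGR4-/- 2 it was GYPB alone (1 of 6), beside 1.17% of all genes, and GYPB was also the only member lowered in both, beside 1.08% of all genes. Without a threshold, GYPB and GYPC were higher with R-spondin2 and lower in both LGR4-/- libraries than the control, as were 19.3% of all genes. These counts describe members that were selected on the same contrasts, and nothing is read from them. In bulk RNA, fewer cells making a transcript and less of it per cell cannot be told apart.

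The LGR4-/- libraries were also set against each other. LGR4-/- 2 was higher than LGR4-/- 1 in all 6 members above the filter on the log2(FPKM + 1) scale. The differences were 0.87 for GYPB, 0.45 for HBZ, 0.39 for GYPC, 0.26 for HBE1, 0.18 for HBA2 and 0.09 for HBG2. Over all genes compared this difference had a median of -0.003 and an SD of 0.222. The share of all genes higher in LGR4-/- 2 was not counted, so nothing is read from the 6 of 6. At 2-fold, 0 of 6 members were past the threshold, against 0.252% of all genes. The counting interval of the read ratio left 0 outside for GYPC, from 0.03 to 0.79, and included it for GYPB, from -0.23 to 2.91, and for the globins.

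**Figure D3:**
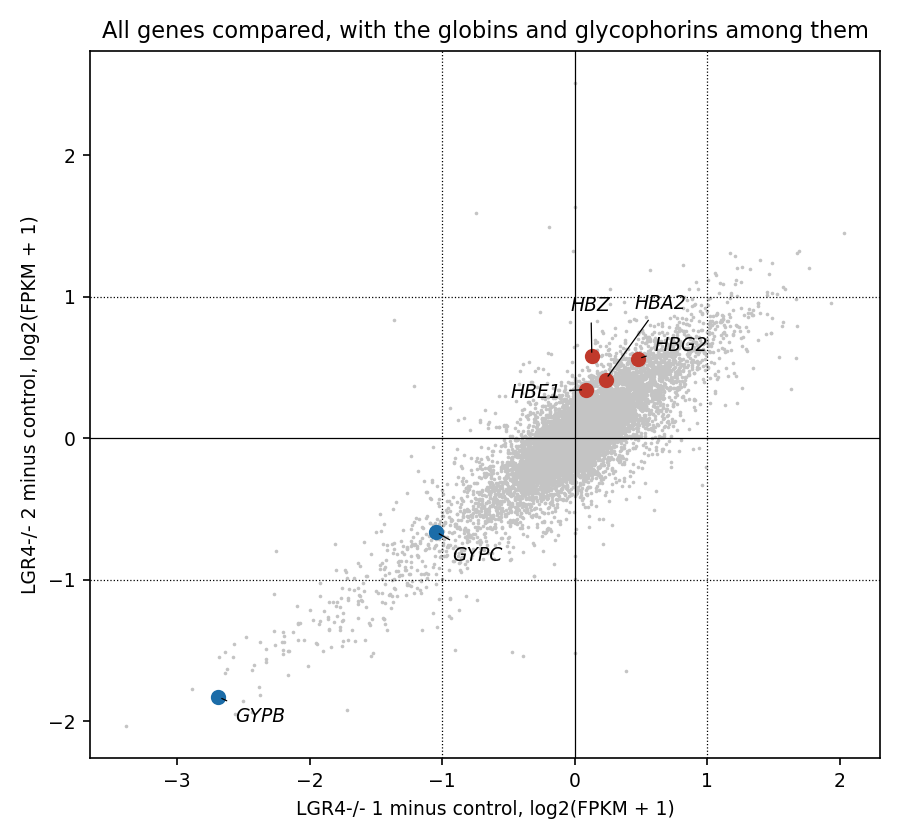
Difference from the control in log2(FPKM + 1), LGR4-/- 1 on the horizontal and LGR4-/- 2 on the vertical axis, for all 12697 genes compared (gray) with 4 globins (red) and 2 glycophorins (blue) named and dotted lines at 2-fold. GYPB lies at the lower left edge, GYPC passes 2-fold in LGR4-/- 1 only, and the globins lie above 0 on both axes with none past 2-fold.

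GYPE, the relative of GYPB on chromosome 4, was lower in the same libraries. It read 3.19 FPKM in the control, 2.92 with R-spondin2, 1.06 in LGR4-/- 1 and 0.91 in LGR4-/- 2, and was past 2-fold in both, at -1.02 and -1.13 on the log2(FPKM + 1) scale. Its counting interval included 0 in LGR4-/- 1, from -3.31 to 0.07, and left it outside in LGR4-/- 2, from -3.85 to -0.12. Of the 50-base coding windows of GYPB, 93.0% do not occur in GYPE, so part of the reads of either gene could be shared.

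The other globins were scarce apart from cytoglobin. CYGB, a globin of fibroblasts and many other cells that is not part of hemoglobin, read 4.79 FPKM in the control, 4.50 with R-spondin2, 0.77 in LGR4-/- 1 and 1.15 in LGR4-/- 2, differences of -1.71 and -1.43 in the LGR4-/- libraries. It was the 1 of 6 other globins above the filter, and it was lower in the LGR4-/- libraries, where HBZ, HBA2, HBE1 and HBG2 were higher and HBG1 was listed at 0. Delta-globin (HBD) read 0.30 FPKM in LGR4-/- 2 and was listed at 0 elsewhere, HBM was listed at 0 throughout, and HBQ1, a weakly expressed alpha-like gene, was at most 0.71 FPKM. Myoglobin (MB) was at most 0.63 FPKM and neuroglobin (NGB) at most 0.36.

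On the log2(FPKM + 1) scale, few regulators of erythroid genes and of globin switching differed 2-fold. Of 24 listed, 19 passed the filter, with a median LGR4-/- difference of -0.11 against 0.02 over all genes compared, and with R-spondin2 a median of -0.07 against -0.01. RUNX1, a factor needed for definitive blood formation, was the 1 regulator past 2-fold in both LGR4-/- libraries on that scale. It read 3.96 FPKM in the control, 3.71 with R-spondin2, 0.61 in LGR4-/- 1 and 1.29 in LGR4-/- 2. In all, 4 of the 19 were higher and 12 lower than the control in both LGR4-/- libraries. The share of all genes higher or lower in both was not counted. Nothing is therefore read from these counts, nor from those of the heme and membrane lists below. With R-spondin2, 0 passed 2-fold. The following regulators are named after their values were seen. GATA1, the main erythroid GATA factor, was at most 0.46 FPKM in any library. GATA2 read 1.48 FPKM in the control, 1.85 with R-spondin2, 0.03 in LGR4-/- 1 and 0.90 in LGR4-/- 2, the order of libraries shown by GYPB and GYPC. The share of all genes with that order was not counted, so nothing is read from the match. The part of GATA factors in the glycophorin differences was not tested. KLF1, an activator of adult beta-globin, read 2.46, 3.01, 1.02 and 0.97 FPKM in the order control, R-spondin2, LGR4-/- 1 and LGR4-/- 2. Without the added 1, KLF1 was at 0.41 and 0.39 of the control in LGR4-/- 1 and LGR4-/- 2, past 2-fold. The counting intervals of its log2 read ratio ran from -2.20 to -0.31 and from -2.31 to -0.37. LYL1, at 2.01, 1.87, 0.44 and 0.76 FPKM in the same order, was also past 2-fold without the added 1. BCL11A, a repressor of gamma-globin, read 4.58, 5.02, 5.37 and 5.39 in that order.

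Genes of heme synthesis and iron uptake, which supply the prosthetic group of globin, were close to the control. Of 20 listed, 18 passed the filter and 0 passed 2-fold in any comparison; the median LGR4-/- difference was 0.06, with 8 higher and 6 lower in both LGR4-/- libraries. ALAS2, the erythroid form of the first enzyme of the pathway, was at most 0.75 FPKM, while ALAS1, the form used by all cells, was at least 22.75. AHSP, a chaperone of free alpha-globin, was listed at 0 in the control and read 0.25, 0.62 and 1.21 FPKM with R-spondin2, in LGR4-/- 1 and in LGR4-/- 2. These 3 genes were also named after their values were seen.

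Of 22 genes of the red cell membrane and its skeleton, 14 passed the filter, with a median LGR4-/- difference of -0.06. TMOD1, tropomodulin, which caps actin filaments in the red cell skeleton and in muscle, was the 1 past 2-fold in both LGR4-/- libraries, at 30.96 FPKM in the control, 35.43 with R-spondin2, 7.94 in LGR4-/- 1 and 10.51 in LGR4-/- 2. It shared the order of libraries shown by GYPB and GYPC, from which again nothing is read. Of the rest, 4 were higher in both LGR4-/- libraries and 6 lower, and with R-spondin2 0 of the 14 passed 2-fold.

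**Figure D4:**
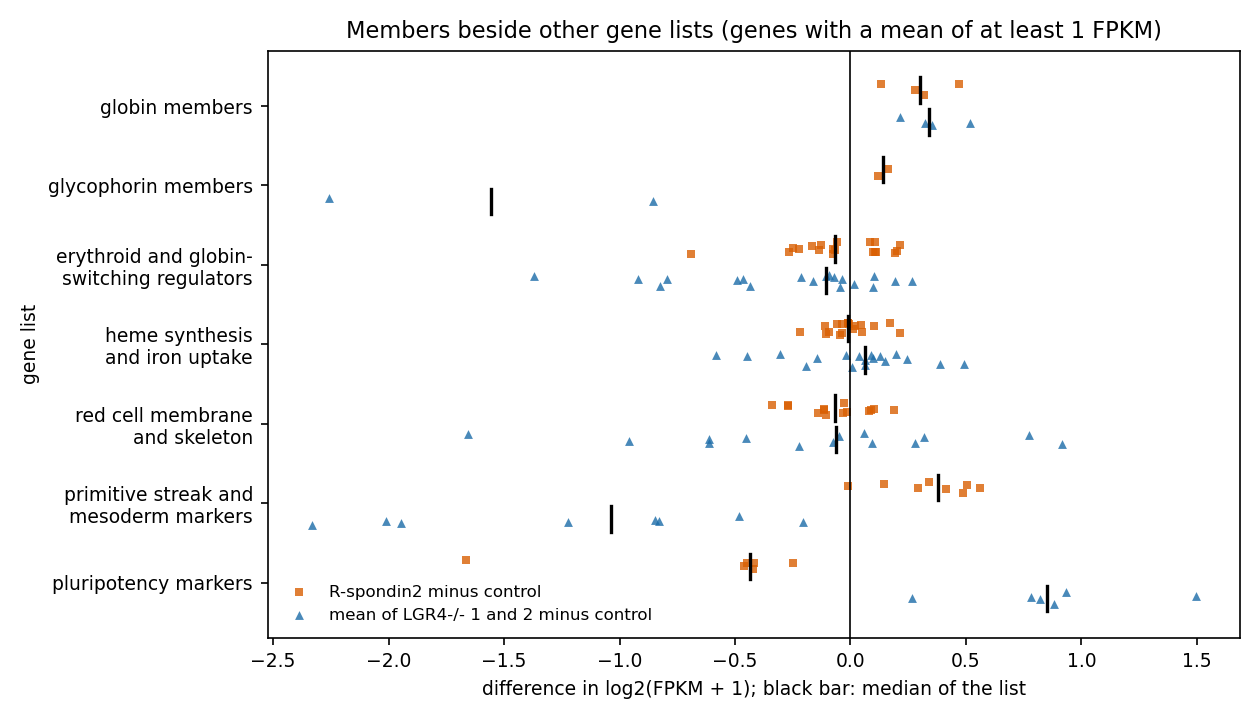
Difference from the control in log2(FPKM + 1) on the horizontal axis for each gene of the lists named at the left with a mean of at least 1 FPKM, for R-spondin2 (squares) and the mean of LGR4-/- 1 and 2 (triangles), with a black bar at the median. Glycophorins and mesoderm markers are lower in LGR4-/-, pluripotency markers higher, and the erythroid regulator, heme and membrane lists are centered near 0.

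Markers of the differentiating cells also differed between libraries. The 8 primitive streak and mesoderm markers summed to 1087 FPKM in the control, 1420 with R-spondin2, 383.7 in LGR4-/- 1 and 597.4 in LGR4-/- 2. All 8 were lower in both LGR4-/- libraries. The share of all genes lower in both was not counted, so nothing is read from the 8 of 8. MESP1, HAND1 and APLNR were past 2-fold in both, as were 1.08% of all genes compared in that direction. The order of libraries in this sum was the same as for GYPB and GYPC. MIXL1 and APLNR were its largest parts, at 376.64 and 362.46 FPKM in the control. Of the 8, only KDR did not follow that order, at 34.40, 34.12, 26.80 and 32.87 FPKM. The share of all genes with that order was not counted, so nothing is read from the match. The 6 pluripotency markers went the other way, summing to 1357, 1035, 2312 and 2089 FPKM, with SOX2 past 2-fold lower with R-spondin2 and past 2-fold higher in both LGR4-/- libraries. The part of these shifts in the glycophorin differences was not tested.

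Markers of blood cells stayed low, and their sum was nearly level while single genes moved in both directions. The 11 summed to 15.59 FPKM in the control, 13.53 with R-spondin2, 14.33 in LGR4-/- 1 and 13.92 in LGR4-/- 2. With ALAS2, SLC4A1 and HBD all below 1 FPKM in every library, these erythroid markers were near 0 where the globins were measured. EPOR, the erythropoietin receptor, was the highest of the list at 5.42 to 6.71 FPKM, within the range of the globins, and CD36, a scavenger receptor of early erythroid and other cells, read 1.13 FPKM in the control, 1.22 with R-spondin2, 0.30 in LGR4-/- 1 and 0.33 in LGR4-/- 2. Unlike CD36, ITGA2B was higher in the LGR4-/- libraries, at 0.87 FPKM in the control, 0.63 with R-spondin2, 1.74 in LGR4-/- 1 and 1.63 in LGR4-/- 2. These genes were named after their values were seen. The 10 stromal and fibroblast markers summed to 510.4, 622.9, 388.3 and 477.1 FPKM in the same order of libraries, with LUM past 2-fold lower in both LGR4-/- libraries. The part of stromal signal in the glycophorin differences was not tested. Endothelial markers were scarce, with 3 of 6 above the filter and a sum of 8.20 to 12.36 FPKM.

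The genes most like each member were found by the root mean square distance between their 3 differences from the control, which is a likeness over 3 values that share a control. For GYPB they were LGR5, a further R-spondin receptor, then FAM89A and ALPK2, at distances of 0.10, 0.10 and 0.11. LGR5 read 36.71 FPKM in the control, 46.28 with R-spondin2, 4.85 in LGR4-/- 1 and 9.78 in LGR4-/- 2. For GYPC they were DUSP5, a phosphatase of ERK, RNF24 and NOTUM, a secreted inhibitor of WNT, at 0.01, 0.05 and 0.05. The nearest genes to the globins were RNF182, DUSP23 and TTC39C for HBG2, IMMP2L, TTC9C and SFT2D2 for HBE1, LOC730183, CP and IDI2 for HBA2, and TMEM86B, EIF4EBP3 and MT2A for HBZ.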

How the data were processed

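RNA-SEQ was performed by the authors on TRA-1-85+ cells, and the deposited values are FPKM per gene, given to 2 decimals. The submitters' processing notes name BWA, Bowtie, RSEM and hg19, with roles and versions not given in the sources used here. From the deposited FPKM, differences in log2(FPKM + 1) were computed for genes averaging at least 1 FPKM over the libraries. A gene was counted past 2-fold at a difference of at least 1 on that scale (in LGR4-/-, in both libraries). A model fitted across all genes, which would have 1 residual degree of freedom, was not run, and no p-value is given.

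The members, gene lists and comparisons were chosen with earlier results of these data known. Named are all 9 members, LGR4, the other globins and glycophorins, listed genes past 2-fold (at most 6 per list and comparison), and the 3 genes nearest each member above the filter in their differences. Genes named outside this rule are stated as such, apart from the markers, and 1 listed gene is not reported here.

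For the depth, the read total was sought that put low FPKM (0.05 to 0.6, transcripts under 1500 bases) nearest to whole reads, using GENCODE release 29 lengths of 8068 genes. Between 76.8% and 79.1% of these values then lay within 0.2 of a whole read, against 42.8% to 46.3% with shuffled lengths. Implied reads used the shortest transcript where a gene had several, and intervals are exact 95% Clopper-Pearson intervals. The depth estimate and the 2-fold counts were tested on simulated data, the intervals were not. Coding sequences came from GENCODE on GRCh38, and promoter windows from RefSeq, matched by symbol for 2 of 9 members. Python 3.11.15, numpy 2.4.6, pandas 2.3.3, scipy 1.17.1 and matplotlib 3.10.9 were used.

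Alternatives were a pseudocount of 0.1, no filter, a filter of 5 FPKM, median-ratio rescaling, a 1.5-fold threshold, near-identical globin genes summed, each LGR4-/- library left out, and other reference libraries.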

Additional observations from a re-analysis of the deposited data

How the results depend on the processing

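With 1 control library no difference has a replicate check, and low reads limit the globins. Of 97 values for single members or the globin median under the alternatives, 94 kept their sign. The 3 that did not were for LGR4-/- with the R-spondin2 library as reference, at -0.15 for HBA2, -0.10 for HBE1 and -0.02 for the globin median. Many of the other signs could not change. For these members a smaller pseudocount or a higher filter keeps the sign of a difference. Leaving out 1 LGR4-/- library keeps it too, since both differed in the same direction. The 94 is therefore no measure of how firm the differences are. The number of genes past 2-fold moved more. With R-spondin2, 28 (6 raised, 22 lowered) became 139 at a pseudocount of 0.1, 14 (0 raised) with a filter of 5 FPKM and 254 at 1.5-fold. For LGR4-/-, 167 (30 raised, 137 lowered) became 345 at a pseudocount of 0.1, 724 at 1.5-fold, 272 (98 raised, 174 lowered) against the mean of both wild-type libraries and 442 (212 raised, 230 lowered) against the R-spondin2 library, and with 1 library left out it ranged from 191 without LGR4-/- 1 to 447 without LGR4-/- 2. Between LGR4-/- 2 and LGR4-/- 1, 32 became 141 at a pseudocount of 0.1, 12 with a filter of 5 FPKM and 306 at 1.5-fold. By construction, a lower threshold, a smaller pseudocount or 1 LGR4-/- library left out can only add genes, and a higher filter can only remove them. The cause of the changes with other reference libraries was not tested. GYPB stayed lower under every alternative run, from -2.69 without LGR4-/- 2 to -1.83 without LGR4-/- 1. Median-ratio rescaling shifted libraries by at most 0.02 on the log2 scale. No paired analysis was possible because control and R-spondin2 have 1 library each, so no 2 replicate numbers are shared between groups.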
